A study of Mus musculus with 10 samples.

Results

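The promoters of 45 genes of DNA replication and the cell cycle were followed in mouse colon organoids by the assay for transposase-accessible chromatin with sequencing (ATAC-seq). In this assay a transposase cuts and tags open DNA, so that a peak of sequenced fragments marks an accessible site. The 45 genes were listed by their role and are 45 of the 21853 protein-coding genes of the mouse annotation (GENCODE M21, genome build GRCm38). They were set beside 64 further cell cycle genes.

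The organoids were grown from whole colon crypts of C57BL/6 mice. WT organoids carried intact Ahr, which encodes the aryl hydrocarbon receptor (AHR), a ligand-activated transcription factor. AHR KO organoids came from Ahr fl/fl mice with Villin-Cre (VilCre), which deletes floxed alleles in the intestinal epithelium. Both genotypes were first grown in WENR, a medium with Wnt3a, EGF, Noggin and R-spondin1. The d4 ENR organoids were then held for 4 days in ENR, without Wnt3a. The same switch removed SB202190, A83-01 and nicotinamide, so these cannot be told apart from Wnt3a withdrawal here. There were 2 WT WENR, 3 AHR KO WENR, 3 WT d4 ENR and 2 AHR KO d4 ENR libraries, each made from 50000 sorted live cells. The methods call the samples biological replicates, but the labels do not say from which animals they came.

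Cells copy their DNA only in S phase, and the proteins that do so form a chain of events. The Mcm2 to Mcm7 ring is loaded on DNA by Cdc6 and Cdt1 in G1, and is switched on as a helicase with Cdc45 and the GINS complex. DNA polymerases then copy the strands, held on by the sliding clamp Pcna, while Rrm1, Rrm2 and Tyms supply nucleotides. Cyclins with their kinases drive each step, E2F factors bind the promoters of the S phase genes, and Ccnb1, Cdk1, Plk1 and the Aurora kinases act in mitosis. In the colon, cells divide at the crypt base, where Wnt signals are high, and stop as they differentiate. The question here was whether the promoters of these genes stay open after Wnt3a withdrawal.

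Of the 45 genes, 34 were found in a RefSeq table of promoter sequences (build GRCm38.p6), with 37 promoters that run from 250 bases before to 50 after a start site. Not matched were Mcm4, Gins1, Gins2, Gins4, Rfc2, Pole, Ccnd1, Ccnd2, Ccne2, Ccna2 and Aurkb. The promoters were searched on both strands for short motifs known from cell cycle promoters. An E2F match was any of TTTCGCGC, TTTGGCGC, TTTCCCGC and TTTGGCGG. The CCAAT box was CCAAT, and the cell cycle genes homology region (CHR) was TTTGAA or TTCGAA. Matches of the E2F patterns may overlap one another and were counted as found. An E2F match was present in 14 of the 37 promoters (37.8%), against 4.39% of the promoters of genes with a peak in all 10 libraries and 2.37% of all 32851 promoters of the table. A CCAAT match was present in 28 (75.7%), against 38.1% and 37.4%. A CHR match was present in 15 (40.5%), against 13.4% and 19.2%. All 15 of these also held CCAAT, and both matches together were found in 5.54% of the promoters of genes with a peak in all 10 libraries. A match is a description of the letters and not evidence that a factor binds.

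The motifs were not spread evenly over the roles. Of the 21 promoters of replication and nucleotide genes, 10 held an E2F match and 5 a CHR match. Of the 9 promoters of G2 and mitosis genes, 1 held an E2F match, 9 held CCAAT and 8 held CHR. The median promoter of the 37 held 24 CpG dinucleotides in 300 bases, against 21 over promoters of genes with a peak in all 10 libraries and 7 over the whole table. Printed below are 6 promoters, with every E2F, CCAAT and CHR match in capitals and the gene's strand read 5′ to 3′. They do not show the full range: all 6 hold CCAAT, while the promoters of Rfc4, Rfc5, Tyms, Ccne1 and E2f1 held no match of any kind. Pcna had the strongest promoter peak of the 45 genes in WENR, and Gins3 had the weakest by the mean of the 5 WENR libraries, close to Rfc2, which was weaker in the 3 AHR KO WENR libraries. Mcm5, Aurka and Rrm2 carried the differences between media described further on, and Cdk1, like Gins3, held all 3 kinds of match.
Pcna (chr2:132253131-132253430, minus strand): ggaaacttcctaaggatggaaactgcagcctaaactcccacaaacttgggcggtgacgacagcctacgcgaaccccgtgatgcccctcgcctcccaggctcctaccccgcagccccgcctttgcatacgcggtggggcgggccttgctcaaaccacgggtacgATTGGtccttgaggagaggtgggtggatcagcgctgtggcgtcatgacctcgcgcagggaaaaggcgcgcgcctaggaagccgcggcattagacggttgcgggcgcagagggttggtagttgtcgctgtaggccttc
Mcm5 (chr8:75109259-75109558, plus strand): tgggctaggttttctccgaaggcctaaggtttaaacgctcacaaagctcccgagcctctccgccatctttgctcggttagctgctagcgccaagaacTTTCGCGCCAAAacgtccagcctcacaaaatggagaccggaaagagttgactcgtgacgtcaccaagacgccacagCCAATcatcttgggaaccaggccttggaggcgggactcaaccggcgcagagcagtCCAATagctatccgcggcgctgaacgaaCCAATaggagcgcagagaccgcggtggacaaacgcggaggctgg
Gins3 (chr8:95633309-95633608, plus strand): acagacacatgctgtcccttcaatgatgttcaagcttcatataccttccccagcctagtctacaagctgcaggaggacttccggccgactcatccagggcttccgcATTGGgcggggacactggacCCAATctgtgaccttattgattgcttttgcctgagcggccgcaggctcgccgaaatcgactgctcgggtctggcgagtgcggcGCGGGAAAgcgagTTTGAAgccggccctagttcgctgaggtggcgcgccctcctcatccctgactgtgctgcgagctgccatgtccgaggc
Rrm2 (chr12:24708004-24708303, plus strand): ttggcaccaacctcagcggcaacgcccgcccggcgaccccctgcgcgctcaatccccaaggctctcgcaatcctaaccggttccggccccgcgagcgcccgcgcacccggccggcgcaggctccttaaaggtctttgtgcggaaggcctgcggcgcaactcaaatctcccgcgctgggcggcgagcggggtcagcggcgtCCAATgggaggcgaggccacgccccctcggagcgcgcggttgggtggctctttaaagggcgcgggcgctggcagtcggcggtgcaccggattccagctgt
Cdk1 (chr10:69352863-69353162, minus strand): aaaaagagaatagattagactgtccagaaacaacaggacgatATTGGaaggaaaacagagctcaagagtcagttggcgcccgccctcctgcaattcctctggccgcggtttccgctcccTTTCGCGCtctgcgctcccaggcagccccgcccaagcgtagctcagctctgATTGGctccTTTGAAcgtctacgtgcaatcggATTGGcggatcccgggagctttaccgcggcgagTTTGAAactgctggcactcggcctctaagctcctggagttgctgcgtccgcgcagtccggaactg
Aurka (chr2:172370521-172370820, minus strand): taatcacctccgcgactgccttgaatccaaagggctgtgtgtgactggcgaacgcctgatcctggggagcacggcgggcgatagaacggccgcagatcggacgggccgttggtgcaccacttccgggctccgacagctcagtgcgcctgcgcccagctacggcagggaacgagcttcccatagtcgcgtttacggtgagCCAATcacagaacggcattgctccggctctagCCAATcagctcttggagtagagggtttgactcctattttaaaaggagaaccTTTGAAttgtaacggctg

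The WENR libraries held 41686181 to 49126792 fragments and the d4 ENR libraries 30354729 to 36307860. They gave 61485 to 65308 peaks each in WENR and 33433 to 58359 in d4 ENR. Peaks covered 63.0% to 68.6% of all fragment coverage in WENR, 14.1% to 30.9% in WT d4 ENR and 33.8% and 44.2% in AHR KO d4 ENR. The mean fragment was 235 to 255 bp long in WENR and 156 to 221 bp in d4 ENR. WT d4 ENR replicate 1 stood apart with the fewest peaks and the lowest share of coverage in peaks. These measures of the libraries therefore moved with the medium and, in d4 ENR, with the genotype. Library quality and accessibility itself cannot be told apart in them, and the part of quality in the differences below was not tested. Of 10 colon epithelium markers, 9 or 10 had a promoter peak in every library (Krt20 only in WT d4 ENR replicate 3). Of 5 immune markers, none had one in any library, and Ptprc and Cd3e, which define immune cells, were among them. Of 4 endothelial markers 1 had a peak in WENR and 0 in d4 ENR, of 5 fibroblast markers 2 and 1, and of 4 glial and neuronal markers 1 and 0 to 2. The fibroblast gene Pdgfra had a peak in all 10 libraries.

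Nearly all promoters of the replication and cell cycle genes stayed accessible after Wnt3a withdrawal. A promoter counted as open in a library where a peak touched a window that began 1 kb before a coding start site and ended 100 bp after it. All 45 promoters had a peak in all 5 WENR libraries and in 4 of the 5 d4 ENR libraries, and 44 had one in the remaining library, WT d4 ENR replicate 1. The share of all protein-coding genes with a peak in all 10 libraries was 53.2%. Of the 13262 genes with a peak in all 5 WENR libraries, 87.7% kept it in all 5 d4 ENR libraries and 1.87% had none in any of them. Among the 10820 of these whose mean WENR pileup was at least that of Gins3, the weakest of the 45 genes by this mean, 98.2% kept their peak, so 44 of 45 is close to the background for promoters of this strength.

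The exception was Ccnd1, which encodes cyclin D1, the partner of Cdk4 and Cdk6 in G1 and a known target of Wnt signalling (chr7:144929931-144939925, minus strand). Its promoter peak was missing in WT d4 ENR replicate 1, where the nearest peak lay 1400 bp from the start site. With a window of 3 kb on each side all 45 genes had a peak in all 10 libraries. The pileup of the Ccnd1 promoter, the mean number of fragments over the peak scaled to 10000000 fragments, was 47.9 and 55.3 in WT WENR and 33.8, 37.7 and 55.5 in AHR KO WENR. It was 8.14 and 9.94 in the other two WT d4 ENR libraries and 14.6 and 17.9 in AHR KO d4 ENR. No d4 ENR value reached a WENR value. Peak calling split this site differently between libraries: the peak was 4251, 4145 and 4247 bp wide in 3 WENR libraries, 763 and 721 bp in the other two, and 183 to 735 bp in d4 ENR.

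The height of the peaks did not stay. Relative to all fragments sequenced, promoter pileup was lower in d4 ENR than in WENR for all 44 genes with a peak in all libraries, and for nearly every other promoter too. The median pileup of the 45 genes was 47.9 and 47.3 in WT WENR, and 45.3, 48.5 and 47.4 in AHR KO WENR. It was 12.1, 15.9 and 18.1 in WT d4 ENR, and 23.4 and 29.1 in AHR KO d4 ENR. Over the 11630 promoters with a peak in all 10 libraries the median was 43.4 to 48.0 in WENR, 12.8 to 17.9 in WT d4 ENR and 23.3 and 28.1 in AHR KO d4 ENR. Between 20 and 25 of the 44 genes lay above that median in each library. The 5 d4 ENR libraries were all below the 5 WENR libraries for 44 of 44 genes, and for 96.8% of all promoters. In a limma fit across the 11630 promoters, on log2 pileup without centring, 44 of 44 genes were lower in d4 ENR at an adjusted p under 0.05, against 99.0% of all promoters. The median difference was -1.15 (log2) for the 44 genes and -1.16 for all promoters.

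**Figure D1:**
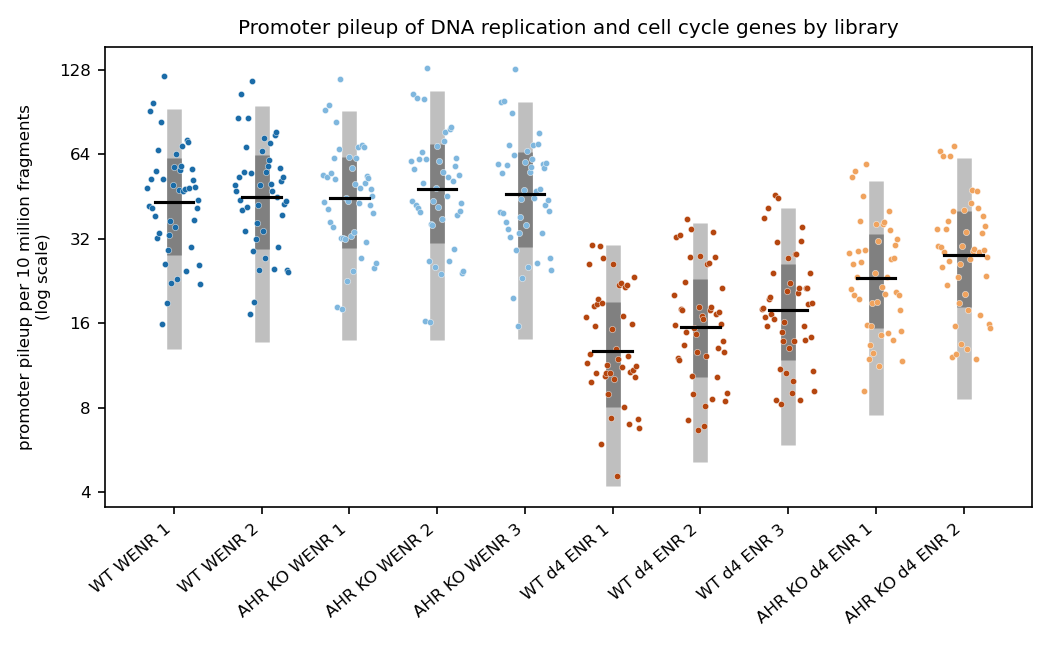
Promoter pileup per 10000000 fragments (log axis) in each library. Coloured points are the replication and cell cycle genes, black lines the median of the 11630 promoters with a peak in all libraries, dark bars their 25th to 75th and light bars their 5th to 95th percentile. The genes spread around the median promoter in every library, and both are lower in d4 ENR, most so in the 3 WT libraries.

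The share of WENR pileup that remained differed between genes. In WT it had a median of 35.9% over the 44 genes and 36.4% over all promoters, and in AHR KO a median of 55.6% and 56.0%. Ccnd2, which encodes cyclin D2, another G1 partner of Cdk4 and Cdk6 (chr6:127125162-127152193), kept the least of the 44 genes in both genotypes. Its pileup was 56.4 and 57.9 in WT WENR, 50.2, 55.1 and 57.5 in AHR KO WENR, 11.99, 12.3 and 13.9 in WT d4 ENR, and 21.5 and 27.1 in AHR KO d4 ENR. That is 22.3% of the WENR mean in WT and 44.8% in AHR KO. Rfc2, a subunit of the clamp loader (chr5:134581366-134601805), kept the most, 49.1% in WT and 73.3% in AHR KO. Its values come from another transcript start, since the gene's annotated 5′ end had a peak in 0 of the 10 libraries. Its pileup was 15.6 to 19.0 in WENR, 8.28 to 10.7 in WT d4 ENR, and 11.9 and 12.5 in AHR KO d4 ENR. Ccnd2 and Rfc2 were thus at opposite ends of the list, and even Rfc2 was lower in every d4 ENR library than in every WENR library.

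**Figure D2:**
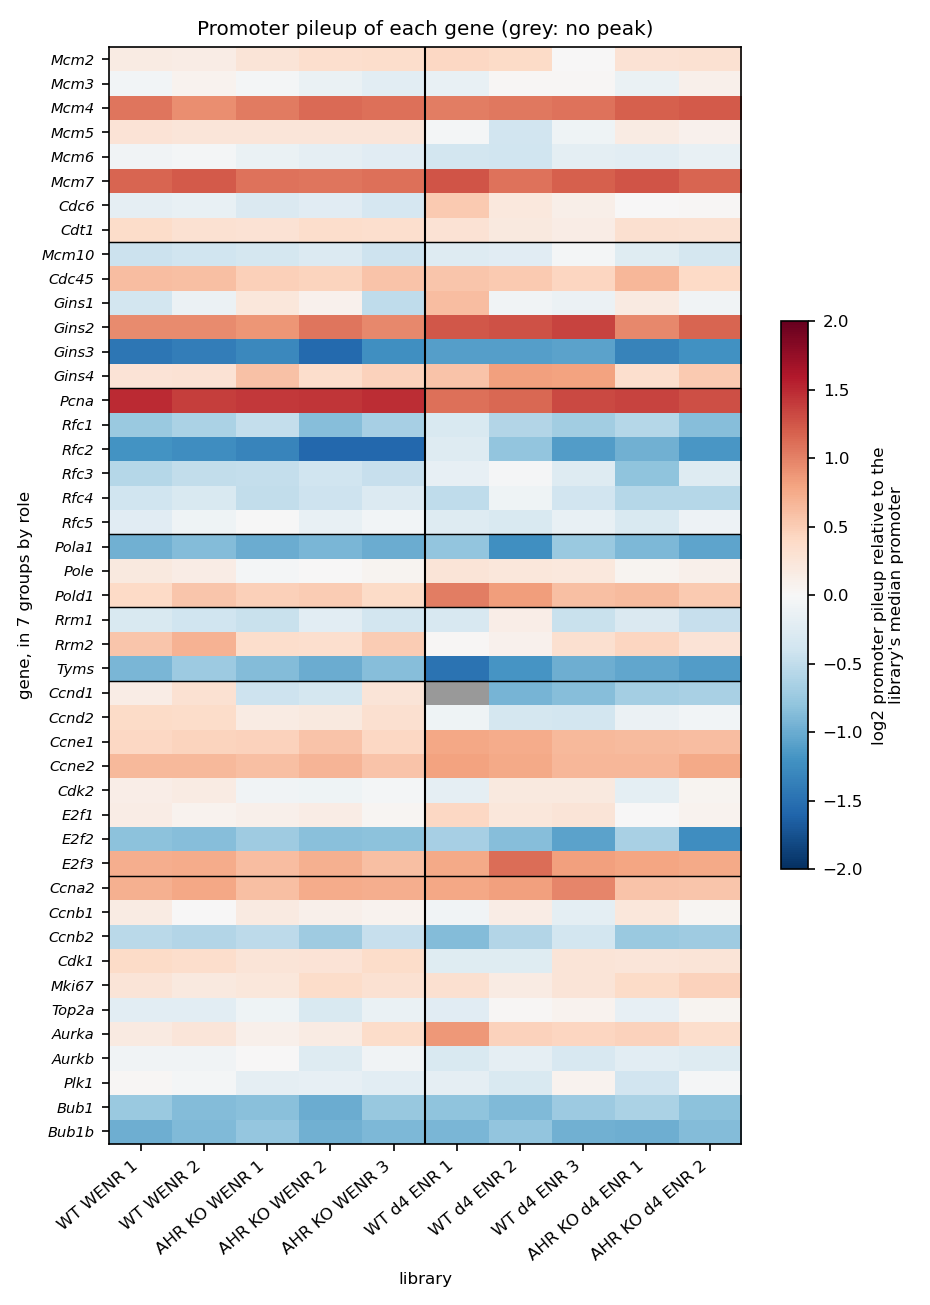
Log2 promoter pileup of each of the 45 genes in each library, relative to the median of the 11630 promoters with a peak in all libraries. Rows are genes in 7 groups by role, columns are libraries, and grey marks the missing Ccnd1 peak of WT d4 ENR replicate 1. Pcna, Mcm4 and Mcm7 are above the median promoter and Gins3, Rfc2 and Bub1b below it in all 10 libraries.

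Since nearly all promoters moved together, each gene was also compared with the other promoters of its own library. The measure was the fold enrichment, the pileup over the background that the peak caller expected locally, on a log2 scale and centred on the median of the 11630 promoters. In the limma fit 11 of the 44 genes were higher in d4 ENR (background 28.5% of promoters) and 4 were lower (background 18.6%), with a median difference of 0.04 for the genes and 0.04 for all promoters. Without centring 572 promoters were higher and 983 lower, and among the 44 genes 1 and 1. The same comparison on centred pileup called 5 genes higher (background 17.6%) and 4 lower (background 12.9%), with a median of 0.05 for the genes and 0.03 for all promoters. By either measure the shares for these genes were near or below those of all promoters. In the gene groups below, log2 differences between media on pileup are these centred ones.

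The measures often disagreed gene by gene. Of the 15 genes called on fold enrichment and the 9 called on pileup, 2 were called in the same direction by both (Mcm5 and Aurka) and 2 in opposite directions (Ccnd2 and Rrm2). Over all promoters 1400 were called in the same direction and 507 in opposite ones. The local background is estimated from the same library over 10000 bp, so that it holds the peak itself and its neighbours. The background implied by pileup over fold enrichment fell with the medium as well, from a median of 7.94 to 8.60 over all promoters in WENR to 2.62 to 4.76 in d4 ENR.

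**Figure D3:**
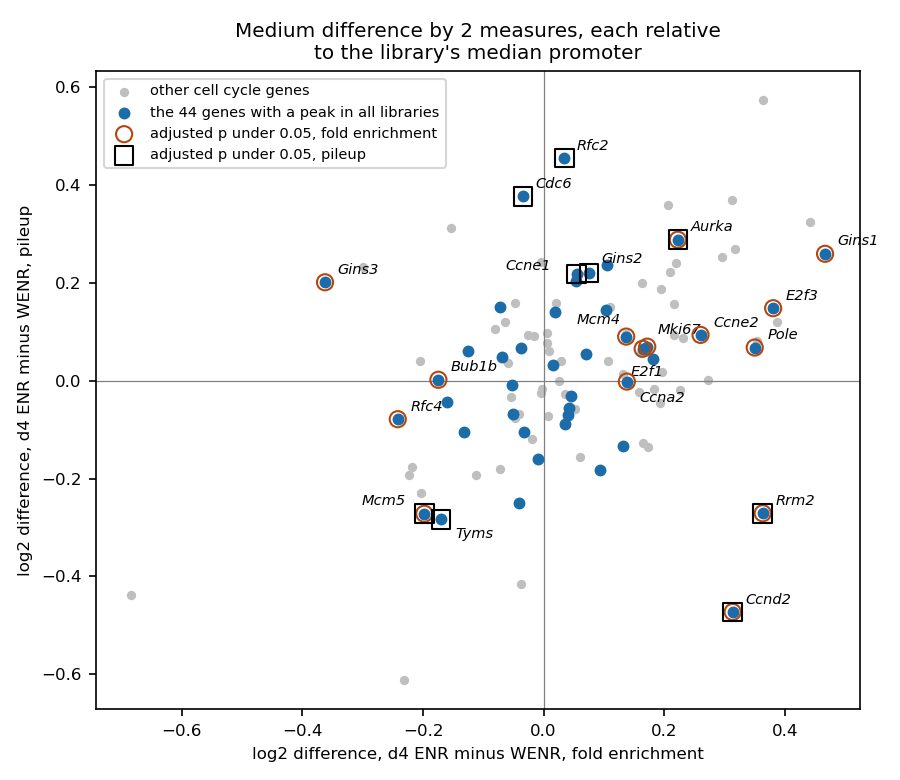
Difference between d4 ENR and WENR (log2, relative to the median promoter of each library) by fold enrichment on the x axis and by pileup on the y axis. Blue points are the 44 genes and grey points other cell cycle genes, with circles and squares for an adjusted p under 0.05 (limma) on each measure. Mcm5 lies low and Aurka high on both axes, while Rrm2 and Ccnd2 are high on x and low on y.

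The genes that load the helicase onto DNA (Mcm2 to Mcm7, Cdc6 and Cdt1) had a median difference in fold enrichment of 0.06, with 1 of 8 higher (Mcm4) and 1 lower. The lower one was Mcm5, a subunit of the ring (chr8:75109569-75128439), whose promoter is printed above with 2 overlapping E2F matches. Its fold enrichment was 6.82 and 6.58 in WT WENR, 6.83, 6.75 and 6.91 in AHR KO WENR, 4.13, 4.91 and 5.96 in WT d4 ENR, and 6.24 and 6.83 in AHR KO d4 ENR. The 3 WT d4 ENR values were the lowest of the 10, and AHR KO d4 ENR overlapped WENR. The difference was -0.20 ± 0.06 (log2, SE, limma adjusted p = 0.015), and on pileup -0.27 ± 0.08 (limma adjusted p = 0.020). Without WT WENR replicate 1 the call on fold enrichment was lost. At the other end of the group Mcm2 differed by 0.18 ± 0.08 (SE, limma adjusted p = 0.067). Cdc6, which recruits the ring, had a pileup of 36.6 to 41.1 in WENR, 18.1 to 19.5 in WT d4 ENR and 23.4 and 28.7 in AHR KO d4 ENR. Relative to other promoters its pileup was higher in d4 ENR by 0.38 ± 0.08 (SE, limma adjusted p = 0.0057), while its fold enrichment differed by -0.03 ± 0.10 (SE, limma adjusted p = 0.79).

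Among the genes that activate the helicase (Mcm10, Cdc45 and Gins1 to Gins4) the median difference in fold enrichment was 0.05. Gins1 and Gins3, subunits of the same GINS complex, lay at its ends. Gins3 (chr8:95633453-95645060) had a fold enrichment of 6.75 and 7.37 in WT WENR, 7.17, 6.63 and 7.88 in AHR KO WENR, 3.99, 5.11 and 6.44 in WT d4 ENR, and 5.06 and 6.24 in AHR KO d4 ENR. All d4 ENR values were below all WENR values, and the difference was -0.36 ± 0.08 (SE, limma adjusted p = 0.0028). On pileup the sign turned, at 0.20 ± 0.08 (SE, limma adjusted p = 0.065). Gins1 (chr2:150905400-150931280) differed by 0.47 ± 0.14 (SE, limma adjusted p = 0.018), from 3.57 to 6.39 in WENR to 6.34 to 6.62 in d4 ENR. Its WENR libraries overlapped d4 ENR, and with only the gene's annotated 5′ end as promoter the difference was -0.05. Relative to other promoters Gins2 was called higher on pileup alone, by 0.22 ± 0.07 (SE, limma adjusted p = 0.034). Its pileup itself was lower in every d4 ENR library than in every WENR library.

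Of the sliding clamp and its loader (Pcna and Rfc1 to Rfc5) none was higher in fold enrichment and 1 of 6 was lower, with a median of -0.10. Pcna (chr2:132249162-132253314) had the strongest peak, with a pileup of 122 and 117 in WT WENR and 119, 130 and 128 in AHR KO WENR. It had 27.3, 34.7 and 44.7 in WT d4 ENR and 59.3 and 68.4 in AHR KO d4 ENR. Every WT d4 ENR value was below both AHR KO d4 ENR values, and these were below WENR. Its fold enrichment differed by 0.09 ± 0.04 (SE, limma adjusted p = 0.10). Rfc4 was lower, at -0.24 ± 0.07 (SE, limma adjusted p = 0.019), and on pileup it differed by -0.08 ± 0.09 (SE, limma adjusted p = 0.52). Rfc2, named here and above after its values were seen, was higher on pileup relative to other promoters, by 0.45 ± 0.14 (SE, limma adjusted p = 0.025).

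Of the catalytic subunits of the DNA polymerases (Pola1, Pole and Pold1) 1 of 3 was called. Pole, the leading strand polymerase (chr5:110286306-110337474), had a fold enrichment of 4.70 to 4.92 in WENR. It had 5.05, 7.25 and 6.80 in WT d4 ENR and 5.19 and 6.003 in AHR KO d4 ENR, all above every WENR library. The difference was 0.35 ± 0.04 (SE, limma adjusted p = 1.4e-04), the lowest adjusted p among the 44 genes. On pileup it was 0.07 ± 0.06 (SE, limma adjusted p = 0.42). The 5′ ends of Pole and Pxmp2, a gene read in the other direction, are 120 bp apart, so their promoter peak is shared. Pola1, which starts each new strand, differed by -0.05 ± 0.07 (SE, limma adjusted p = 0.53).

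In nucleotide supply 1 of 3 genes was called on fold enrichment (Rrm2, higher) and 2 on pileup (Rrm2 and Tyms, lower). Rrm2, the regulated subunit of ribonucleotide reductase (chr12:24708241-24714146), had a fold enrichment of 4.07 to 4.54 in WENR, 4.25, 5.72 and 5.68 in WT d4 ENR, and 5.64 and 5.24 in AHR KO d4 ENR. Apart from WT d4 ENR replicate 1, all d4 ENR values were above WENR, and the difference was 0.36 ± 0.06 (SE, limma adjusted p = 5.1e-04). Its pileup was 64.1 and 73.1 in WT WENR, 57.3, 60.6 and 66.0 in AHR KO WENR, 13.0, 16.5 and 22.3 in WT d4 ENR, and 31.3 and 33.9 in AHR KO d4 ENR. Relative to other promoters this was a fall, of -0.27 ± 0.08 (SE, limma adjusted p = 0.024). The background implied for the Rrm2 promoter went from 14.1 to 16.1 in WENR to 2.88 to 6.47 in d4 ENR. Tyms, thymidylate synthase, was lower on pileup by a similar size, -0.28 ± 0.09 (SE, limma adjusted p = 0.040), and differed in fold enrichment by -0.17 ± 0.09 (SE, limma adjusted p = 0.15). Rrm1 differed by -0.07 in fold enrichment and 0.05 in pileup.

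The genes of G1 and S phase control had a median difference in fold enrichment of 0.16, the highest of the 7 groups, and 4 of the 7 with a peak in all libraries were higher (Ccnd2, Ccne2, E2f1 and E2f3), where 28.5% of all promoters were. On pileup the median was 0.07, with 1 higher and 1 lower, and helicase activation had the highest median, 0.20. E2f3 (chr13:29906575-29986063) encodes an activating E2F factor. Its fold enrichment was 2.86 to 3.01 in WENR, 3.24, 5.10 and 3.96 in WT d4 ENR, and 3.29 and 3.45 in AHR KO d4 ENR, so that all d4 ENR libraries were above all WENR libraries. The difference was 0.38 ± 0.07 (SE, limma adjusted p = 0.0010), and on pileup 0.15 ± 0.08 (SE, limma adjusted p = 0.17). Ccne2, a cyclin E that starts S phase with Cdk2, differed by 0.26 ± 0.06 (SE, limma adjusted p = 0.0031). E2f1 differed by 0.16 ± 0.04 (SE, limma adjusted p = 0.0097). Cdk2 was lowest of the group at -0.16 ± 0.06 (SE, limma adjusted p = 0.056).

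Ccnd2 moved in opposite directions by the 2 measures. Its fold enrichment was 2.27 and 2.13 in WT WENR, 2.13, 2.19 and 2.11 in AHR KO WENR, 2.53, 2.64 and 2.73 in WT d4 ENR, and 2.51 and 2.63 in AHR KO d4 ENR. All 5 d4 ENR values were above all 5 WENR values, with a difference of 0.31 ± 0.08 (SE, limma adjusted p = 0.0056). Relative pileup differed by -0.47 ± 0.07 (SE, limma adjusted p = 8.1e-04), the largest fall of the 44 genes. The implied background of this wide peak, 2992 to 4753 bp, went from 23.6 to 27.2 in WENR to 4.65 to 10.3 in d4 ENR. Ccnd1 could be fitted with the promoters that had a peak in at least 8 libraries, where WT d4 ENR replicate 1 is left out for this gene. Its relative pileup then differed by -0.81 ± 0.13 (SE, limma adjusted p = 0.0011) and its fold enrichment by -0.15 ± 0.11 (SE, limma adjusted p = 0.26). The differing peak widths given above bear on both values. Ccne1, named after its values were seen, was higher on pileup relative to other promoters, by 0.22 ± 0.06 (SE, limma adjusted p = 0.025). Its pileup itself was lower in every d4 ENR library than in every WENR library.

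**Figure D4:**
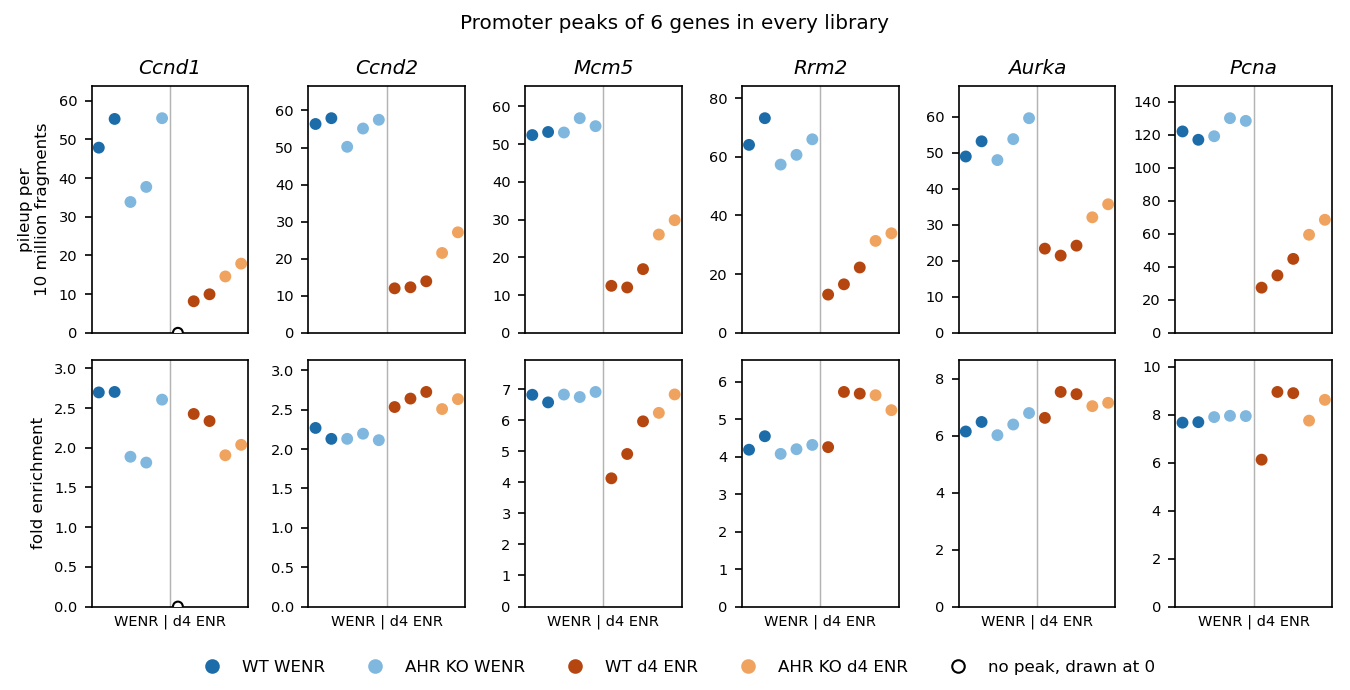
Promoter pileup per 10000000 fragments (upper row) and fold enrichment (lower row) of 6 genes in each library, in the order WT WENR, AHR KO WENR, WT d4 ENR and AHR KO d4 ENR. Each point is 1 library and an open point, drawn at 0, marks no peak. Pileup is lower in every d4 ENR library for all 6 genes, while the fold enrichment of Ccnd2 is higher in all 5.

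The G2 and mitosis genes had a median difference of -0.01, with 3 of 11 higher and 1 lower. Aurka, a kinase of the mitotic spindle (chr2:172356190-172370535), was higher relative to other promoters by both measures, though its pileup itself fell. Its fold enrichment was 6.15 and 6.48 in WT WENR, 6.02, 6.40 and 6.80 in AHR KO WENR, 6.63, 7.54 and 7.46 in WT d4 ENR, and 7.04 and 7.16 in AHR KO d4 ENR. The groups overlapped in WT d4 ENR replicate 1 and AHR KO WENR replicate 3 only. The difference was 0.22 ± 0.07 (SE, limma adjusted p = 0.022), and on pileup 0.29 ± 0.10 (SE, limma adjusted p = 0.040). The call on fold enrichment was lost in 4 of the 10 fits that left out a library (WT WENR replicate 1 or 2, AHR KO WENR replicate 1, or AHR KO d4 ENR replicate 1). That of Gins1 was lost without WT WENR replicate 1 or AHR KO d4 ENR replicate 1. The 5′ end of Cstf1 lies 146 bp from that of Aurka on the other strand, so this peak too is shared. Ccna2, cyclin A2, differed by 0.14 ± 0.04 (SE, limma adjusted p = 0.019) and in pileup by -0.002 ± 0.07 (SE, limma adjusted p = 0.99). Bub1b, of the spindle checkpoint, was lower at -0.17 ± 0.05 (SE, limma adjusted p = 0.019), with a pileup difference of 0.002 ± 0.07 (SE, limma adjusted p = 0.99). Without WT WENR replicate 2 the calls on fold enrichment of Ccna2, Bub1b and Rfc4 were lost. Those of Bub1b and Rfc4 were also lost without AHR KO d4 ENR replicate 1, and that of Ccna2 without WT WENR replicate 1 or AHR KO WENR replicate 1.

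Mki67 and Cdk1 are given because they are widely read as marks of dividing cells, and were chosen after their values were seen. The pileup of Mki67, the gene of the Ki-67 antigen, was 51.6 to 62.0 in WENR, 15.9, 17.5 and 21.4 in WT d4 ENR, and 30.4 and 38.7 in AHR KO d4 ENR. Its fold enrichment was higher by 0.17 ± 0.05 (SE, limma adjusted p = 0.020). The pileup of Cdk1, the kinase that starts mitosis, was 53.5 to 59.3 in WENR, 10.8, 13.1 and 21.3 in WT d4 ENR, and 27.4 and 33.5 in AHR KO d4 ENR. Its fold enrichment differed by -0.04 ± 0.07 (SE, limma adjusted p = 0.67). Both promoters had a peak in every library. Of its WENR pileup Cdk1 kept 26.4% in WT and 53.5% in AHR KO, and Mki67 kept 35.3% and 60.3%. Cdk1 lay above the median promoter in all WENR libraries and below it in WT d4 ENR replicates 1 and 2, and its relative pileup differed by -0.25 ± 0.10 (SE, limma adjusted p = 0.069).

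Between genotypes, promoters of these genes were alike in WENR and differed in height in d4 ENR. In WENR 0 of 44 genes differed between AHR KO and WT in fold enrichment (limma, background 0.0172%), with 1 at an unadjusted p under 0.05 (199 of 11630 promoters). On pileup per 10000000 fragments 0 of 44 differed as well (limma, background 0%), with 0 at an unadjusted p under 0.05 (112 of 11630 promoters). In d4 ENR both AHR KO libraries were above all 3 WT libraries in pileup for 38 of 44 genes, against 89.8% of all promoters. In the limma fit 42 of 44 were higher in AHR KO, against 92.1% of all promoters, with a median difference of 0.68 (log2) for the genes and 0.71 for all promoters. Gins4 and Rfc3 were not called, at 0.44 and 0.36. Without AHR KO d4 ENR replicate 2, which leaves only AHR KO d4 ENR replicate 1, fewer of the 44 genes were called. The count over all promoters moved as well when a library was left out, as given further on.

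The effect of the medium on pileup was smaller in AHR KO. The difference of the effects (AHR KO minus WT) was above 0 for all 44 genes, from 0.18 to 1.11, and passed the test for 20, against 44.3% of all promoters. It passed for none of the 44 in 5 of the 10 fits that left out a library (WT WENR replicate 1 or 2, AHR KO WENR replicate 1 or 3, or AHR KO d4 ENR replicate 2), and for 38 without WT d4 ENR replicate 3. The count over all promoters moved widely as well in the fits that left out a library, from 1 to 9111. The largest difference of the effects among the 44 genes was that of Rrm2, 1.11 ± 0.28 (SE, limma adjusted p = 0.021). With 2 or 3 libraries a group this contrast therefore rests on few libraries, whose share of coverage in peaks differed in the same direction.

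Relative to other promoters, 3 of 44 genes differed between the genotypes in d4 ENR in fold enrichment. Mcm5 was higher in AHR KO by 0.33 ± 0.08 (SE, limma adjusted p = 0.032), where 4.20% of all promoters were higher. Pole (-0.24 ± 0.06, SE, limma adjusted p = 0.037) and E2f1 (-0.22 ± 0.06, SE, limma adjusted p = 0.0498) were lower, where 5.13% of all promoters were. The count was 0 in 8 of the 10 fits that left out a library, 3 without WT d4 ENR replicate 1 and 7 without WT d4 ENR replicate 3. Over all promoters the count moved widely in these fits as well, as given further on. Centred pileup and fold enrichment without centring called 0 of 44, with 8 and 1 at an unadjusted p under 0.05. Of the 11630 promoters 2389 and 922 were at such a p. The effect of the medium on fold enrichment differed between the genotypes for 0 of 44 genes (limma, background 0.404%), with 7 at an unadjusted p under 0.05 (1789 of 11630 promoters).

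Peaks were narrower in d4 ENR. The median width of the 11630 promoter peaks was 1375 to 1435 bp in WENR, 1030 to 1151 bp in WT d4 ENR and 1333 and 1294 bp in AHR KO d4 ENR. Relative to other promoters, 4 of 44 genes were wider in d4 ENR (Pcna, Mcm2, Gins2 and Mcm7, background 11.9%) and 4 narrower (Cdc6, Pole, Mcm3 and Rrm2, background 10.3%). The Pcna peak was 1010 to 1077 bp wide in WENR and 929 to 1104 bp in d4 ENR, a relative difference of 0.21 ± 0.04 (SE, limma adjusted p = 0.011). The Cdc6 peak was 762 to 856 bp wide in WENR and 426 to 555 bp in d4 ENR, with no overlap (-0.42 ± 0.08, SE, limma adjusted p = 0.012). Without centring 0 of 44 were wider and 22 narrower, where 20 and 4858 of the 11630 promoters were. Pcna, Mcm2, Gins2 and Mcm7 then had differences of -0.04, -0.01, -0.06 and -0.10. The centred counts over all promoters moved widely when a library was left out, as given further on. With centring, the counts of wider and narrower genes were 0 and 0 without WT WENR replicate 1. Without WT WENR replicate 2 they were 1 and 1, and without WT d4 ENR replicate 1 or 3 they were 7 and 4. Without any 1 of the AHR KO WENR libraries they were 2 and 2, without AHR KO d4 ENR replicate 1 they were 2 and 3, and without AHR KO d4 ENR replicate 2 they were 4 and 2.

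Away from promoters more was lost. Distal regions were those within 5 kb of the gene that overlapped no promoter of any coding gene. There were 57, near 26 of the 45 genes, of which 33 had their middle in an intron, 8 in an exon, 3 upstream and 13 downstream of the gene. Each WENR library had a peak in 37 to 40 of the 57 (64.9% to 70.2%). WT d4 ENR had one in 10, 22 and 22 (17.5%, 38.6% and 38.6%), and AHR KO d4 ENR in 26 and 28 (45.6% and 49.1%). Of all such regions near coding genes, 66.4% to 72.2% had a peak in each WENR library. In d4 ENR 27.0%, 44.5% and 54.3% had one in WT, and 48.3% and 59.4% in AHR KO. All 10 libraries had a peak in 8 of the 57 regions, against 22.4% of 43252 such regions near coding genes. Of the 32 regions with a peak in all WENR libraries 25% kept it in all d4 ENR libraries, against 41.1% of all such regions. Unlike the share for promoters, these shares were not matched for pileup. Many of the regions not kept had a low WENR pileup, though regions of Rrm2, Ccnd1, Ccnd2 and Gins1 did not. The strongest in WENR, of Aurkb and Ccnd2, were kept. The part of peak strength in the lower share was not tested. Without WT d4 ENR replicate 1 the count with a peak in all libraries was 16. The share of all regions without that library is not given here, so this count cannot be set against a background.

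A peak in all 5 WENR and no d4 ENR library was found in 6 of the 57 regions, against 6.25% of all. The converse was found in 0, against 0.273% of all. The 6 lay in Gins1 (chr2:150913587-150915383, intron), Gins2 (chr8:120579766-120581624, exon, also within Gse1), Tyms (chr5:30067678-30068213, exon), E2f3 (chr13:29932700-29933899, intron) and Pola1 (chrX:93368387-93369085 and chrX:93549229-93551235, introns). The Gins1 region had a pileup of 12.9 to 22.3 in WENR. The other five had 3.19 to 7.81, which is low beside promoters. When every list was trimmed to its 33433 most significant peaks, 0 of the 57 regions had this pattern, so the pattern depended on the length of the lists.

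Their central 300 bases were read from the genome (GRCm38.p6) and searched on both strands for TGANTCA, bound by AP-1 factors, and CTTTGAT, bound by the TCF/LEF factors of Wnt signalling. Both motifs were chosen after the values were seen. TGANTCA was found in 1 of the 6 and CTTTGAT in 1 of the 6, both in the same region of Pola1. Over all regions near coding genes the shares were 21.1% and 4.95%, and over the 2703 with the same pattern of peaks 33.1% and 6.14%. The Pola1 region is shown with the matches in capitals, on the plus strand.
Pola1 intron (chrX:93550083-93550382): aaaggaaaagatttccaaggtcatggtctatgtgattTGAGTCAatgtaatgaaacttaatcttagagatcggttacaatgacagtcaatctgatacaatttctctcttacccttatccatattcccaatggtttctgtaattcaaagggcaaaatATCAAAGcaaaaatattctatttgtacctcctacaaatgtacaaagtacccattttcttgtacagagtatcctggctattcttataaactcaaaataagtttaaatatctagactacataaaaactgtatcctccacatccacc

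**Figure D5:**
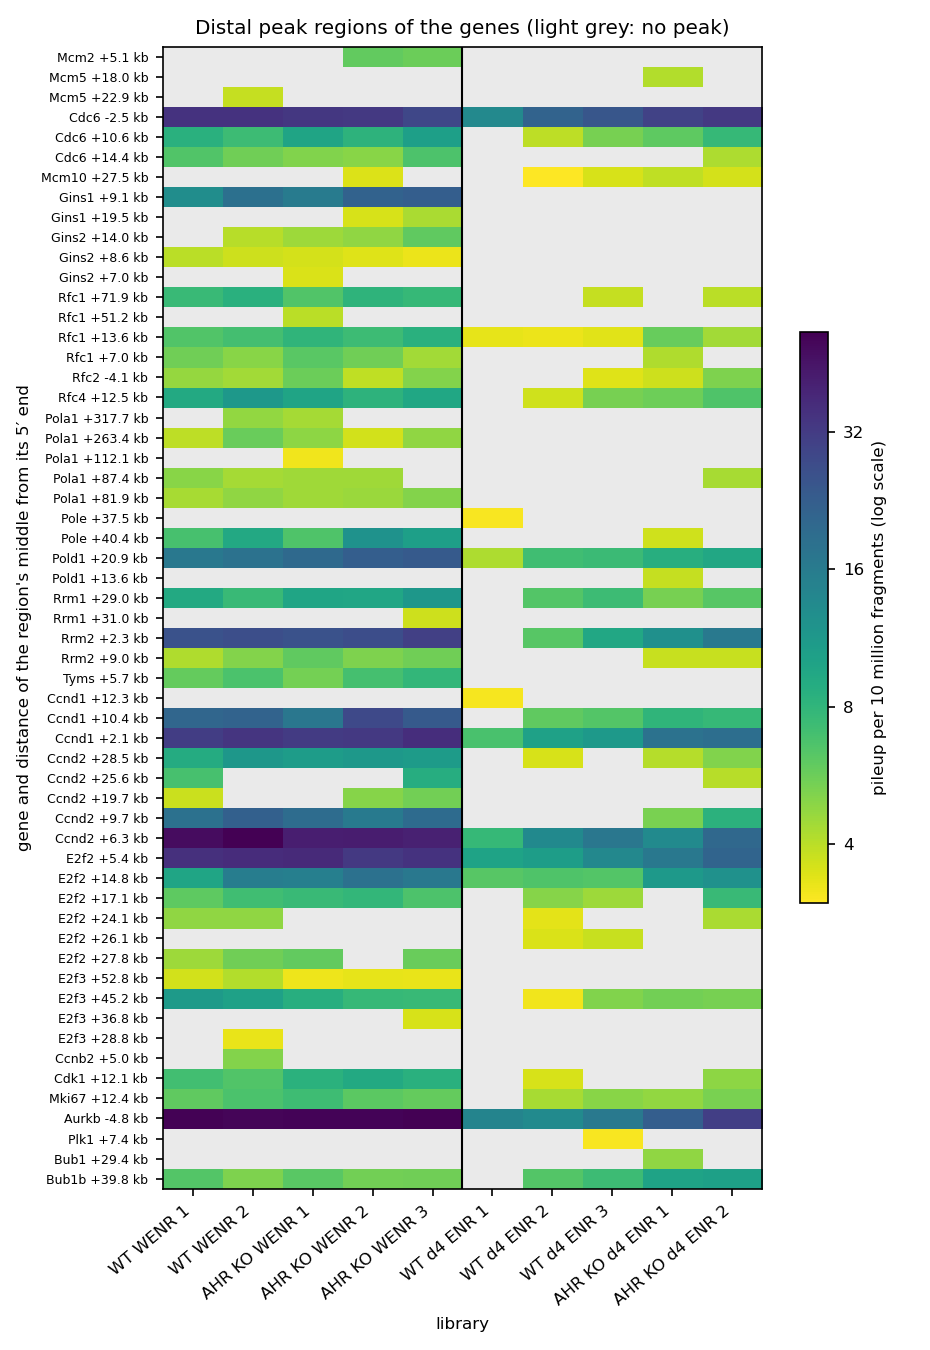
Pileup per 10000000 fragments (colour, log scale) of the 57 distal regions in each library, by gene and distance of the region's middle from the gene's 5′ end. Light grey means no peak. Most regions with a peak in all WENR libraries lack one in at least 1 d4 ENR library, among them some with a high WENR pileup (regions of Rrm2, Ccnd1, Ccnd2 and Gins1). The regions with the highest WENR pileup, 1 each of Aurkb, Ccnd2, E2f2, Ccnd1 and Cdc6, are among the 8 with a peak in every library.

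The 8 distal regions with a peak in all libraries belonged to Cdc6, Rfc1, Pold1, Ccnd1, Ccnd2, E2f2 (2 regions) and Aurkb, and 6 of them differed in fold enrichment relative to other distal regions. Regions of Ccnd1, Ccnd2, Cdc6 and Aurkb were higher in d4 ENR, where 29.1% of 16885 distal regions were, and those of Pold1 and Rfc1 lower, where 18.7% were. On relative pileup the regions of Ccnd1 (-0.21, limma adjusted p = 0.082), Aurkb (-0.24, limma adjusted p = 0.11) and Rfc1 (0.31, limma adjusted p = 0.11) had the opposite sign and were not called. The intronic Ccnd2 region (chr6:127145407-127146366) had a pileup of 40.4 to 52.9 in WENR, 7.64, 13.5 and 16.9 in WT d4 ENR, and 13.3 and 20.01 in AHR KO d4 ENR. Its fold enrichment differed by 0.41 ± 0.07 (SE) and its relative pileup by -0.56 (limma adjusted p = 5.9e-04 and 3.6e-04), the same opposite signs as at the Ccnd2 promoter. In d4 ENR its fold enrichment was lower in AHR KO than in WT, by -0.45 ± 0.10 (SE, limma adjusted p = 0.034). It was the only one of the 8 regions called between the genotypes, where 803 of all 16885 distal regions were called in either direction. The region 2.53 kb upstream of Cdc6 (chr11:98904586-98905956) had a pileup of 28.5 to 34.7 in WENR, 13.6, 21.2 and 24.6 in WT d4 ENR, and 30.0 and 32.9 in AHR KO d4 ENR. This pileup was below WENR in every WT d4 ENR library and overlapped WENR in AHR KO d4 ENR. Relative to other distal regions it was higher in d4 ENR by both measures (0.44 ± 0.08, SE, in fold enrichment and 0.72 in pileup, limma adjusted p = 5.9e-04 and 2.1e-05).

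Other cell cycle genes were counted in the same way. Of 30 further replication genes 29 had a promoter peak in all 10 libraries, as did 21 of 21 mitotic genes and 13 of 13 inhibitors and pocket proteins. In fold enrichment, where 28.5% of all promoters were higher in d4 ENR and 18.6% lower, 10 of the replication genes were higher and 5 lower, from Prim1, a primase subunit (-0.68, limma adjusted p = 2.1e-04), to Pold2 (0.36, limma adjusted p = 0.0034). Of the mitotic genes 7 were higher and 3 lower, from Cenpe (-0.22, limma adjusted p = 0.013) to Ube2c, which marks cyclins for destruction (0.44, limma adjusted p = 3.8e-05). Of the inhibitors and pocket proteins 8 were higher and 0 lower, with a median of 0.17, from Rbl2 (-0.05, limma adjusted p = 0.49) to E2f5 (0.39, limma adjusted p = 0.0026). On centred pileup 17.6% of all promoters were higher and 12.9% lower. By this measure 6 of the replication genes were higher and 2 lower, and 2 of the mitotic genes higher and 1 lower. Of the inhibitors and pocket proteins 1 was higher and 1 lower.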

How the data were processed

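Chromatin accessibility was measured by ATAC-seq in 10 libraries of sorted colon organoid cells, in 4 groups by genotype and medium as given in the labels. Reads were processed by the authors with nf-core/atacseq (Trim Galore, then BWA against GRCm38). MACS 2.2.7.1 was run by them on the read pairs of each library separately to find broad peaks. No control library was used, the broad cutoff was 0.1, the q cutoff was 0.05, and the local background was taken over 10000 bp. The deposited lists give for each peak its pileup (a coverage signal in fragments), its fold enrichment over the local background (a ratio) and −log10 p and q values. No read counts were used, so a value exists only where a peak was called, and depth (30354729 to 49126792 fragments, per the file headers) limits which weak peaks are listed.

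A promoter ran from 1 kb upstream to 100 bp downstream of any protein-coding transcript start, and took the highest value of the peaks that overlapped it by at least 1 bp. Pileup was scaled to 10000000 fragments, and width was the summed length of those peaks. Distal regions were peaks merged over the libraries, within 5 kb of a gene and outside every promoter. Log2 values of features with a peak in all 10 libraries, with no pseudocount, were fitted by group with limma 3.58.1 (R 4.3.3), two-sided, after centring each library on its median. The contrasts were d4 ENR against WENR as the mean over both genotypes, AHR KO against WT in each medium, and the difference between the effects of the medium. P-values were adjusted over all features by the Benjamini-Hochberg method, with 0.05 as threshold, and measure the spread between libraries. The method was tested on simulated data. Python 3.11.15 served for the tables (pandas 2.3.3, numpy 2.4.6) and the plots (matplotlib 3.10.9).

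The members and the gene lists were chosen with earlier results of these data known. Genes were named with values where a promoter peak was missing in a library, at both ends of each group by the difference between media, among the 8 lowest p-values of members called in each direction of a fit, and where a distal region had peaks in all libraries of 1 medium and none of the other. Of the other lists, the genes at both ends were named. Mcm4, Rfc2, Ccne1, Mki67, Cdk1 and Tk1 were named after their values were seen. The fits on pileup without centring were also chosen after the data were seen. Alternatives were lists of equal length, a −log10 q of at least 5, other windows, other measures, no centring, replicate number as a block and leaving out each library.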

Additional observations from a re-analysis of the deposited data

Results flagged for a closer look

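The fall of promoter pileup per 10000000 fragments from WENR to d4 ENR differed between AHR KO and WT for 20 of the 44 genes by the test of the difference itself (limma, adjusted p under 0.05), and for 5147 of 11630 promoters. When single libraries were left out, the count was 0 to 38 among the 44 genes and 1 to 9111 over all promoters. The share of coverage in peaks, 14.1% to 30.9% in WT d4 ENR and 33.8% and 44.2% in AHR KO d4 ENR, moved the same way, and its part was not tested.

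The fold enrichment of Mcm10, a helicase activation factor, relative to the median promoter moved in opposite directions in the genotypes, with every d4 ENR library above every WENR library in WT and below in AHR KO. The difference between media was 0.15 in WT and -0.11 in AHR KO (log2). The test of the difference between these effects gave -0.26 ± 0.09 (SE, limma adjusted p = 0.20) and did not pass. Such opposite moves were found for 1 of the 44 genes (2.27%) and 198 of 11630 promoters (1.70%).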

How the results depend on the processing

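The promoter peaks of 42 to 45 of the 45 genes were present in all libraries under every alternative run. Tyms, Ccnd1 and E2f2 missed a peak somewhere with a −log10 q of at least 5, Ccnd1 and E2f2 with lists of equal length, and Mcm7 (peak in 8 libraries), Rfc2 (in 0) and Ccnd1 (in 9) with only the gene's 5′ end. Depth limits what the lists show of weak sites. The cause of the changes below was not tested.

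Without centring, fold enrichment was higher in d4 ENR at 572 promoters and lower at 983, and among the 44 genes 1 and 1. It then differed between genotypes in d4 ENR at 2 promoters and 0 of the 44 genes, in WENR at 0, and in the effect of the medium at 0. Width without centring was higher at 20 and lower at 4858 promoters, among the 44 genes 0 and 22, and Gins2 (-0.060), Mcm2 (-0.012), Mcm7 (-0.10) and Pcna (-0.037) turned. Distal regions called were 2845, of these genes 3. With pileup in place of fold enrichment 2047 promoters and 5 of the 44 genes were higher, and Bub1b (0.0017), Ccna2 (-0.002), Ccnd2 (-0.47), Gins3 (0.20) and Rrm2 (-0.27) turned. Pileup differed between genotypes in d4 ENR at 178 promoters and 0 of the 44 genes, in WENR at 4, in the effect of the medium at 5, and 3 distal regions of these genes were called. With pileup times peak length 1670 promoters were higher, and Ccnd2 (-0.60), E2f1 (-0.028), Gins3 (0.26), Pold2 (-0.70), Pole (-0.27), Rfc4 (0.27), Rrm2 (-0.58) and Ube2c (-0.64) turned. With only the 5′ end of the gene Gins1 turned (-0.048). With a −log10 q of at least 5, 7 of the 44 genes were lower, 2983 distal regions were called, 1 of these genes, and 3 of their regions had a peak in all libraries. Lists of equal length gave 5 promoters between genotypes in WENR, and 0 distal regions of these genes with peaks in WENR only. With 20 kb on each side 11 regions of these genes had peaks in WENR only and 26 in all libraries. The latter were 5 with the gene body alone and 4 where peaks had to cover 50% of a region.

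The deviations of samples with the same replicate number had correlations of -0.09 to 0.02 between media and of 0.02 to 0.25 between genotypes, the highest for replicate 1 in d4 ENR. Not every pair was above 0.1 and the labels do not say what the numbers share, so the samples were not treated as pairs. With the replicate number as a block 3332 promoters were higher and 2184 lower in d4 ENR, among the 44 genes 11 and 5. The block gave 0 promoters between genotypes in WENR, 23 for the difference of the effects, and 902 wider promoters, 2 of the 44 genes.

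Leaving out each library in turn gave 2370 to 3695 promoters higher and 1644 to 2580 lower in fold enrichment, among the 44 genes 7 to 13 and 2 to 7. Between genotypes in d4 ENR 209 to 2138 promoters were called and 0 to 7 of the genes, in WENR 0 to 3 and 0 to 0, and for the difference of the effects 1 to 435 and 0 to 1. Wider promoters were 178 to 2290 and narrower ones 556 to 1670, among the genes 0 to 7 and 0 to 4. Distal regions called were 6097 to 12005, of these genes 5 to 9, with 6 to 8 in WENR only and 8 to 16 in all libraries. Pileup without centring was called at 11513 to 12083 promoters by medium (44 to 45 of the genes), 5316 to 11122 by genotype in d4 ENR (19 to 43), 0 to 18 by genotype in WENR (0 to 0) and 1 to 9111 for the difference of the effects (0 to 38). Promoter peaks in all libraries were found for 11630 to 12172 genes, 44 to 45 of the 45. Of the single named genes, no difference changed sign when a library was left out, and 78 values lost the call, 5 gained it and 267 kept their side of the threshold.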

Other observations

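Tk1, thymidine kinase 1 of the nucleotide salvage route, had a promoter peak in all 5 WENR and both AHR KO d4 ENR libraries and in none of the 3 WT d4 ENR libraries. Peaks lay nearby in those 3, at 1106, 1180 and 144 bp from the start, with a pileup of 11.3, 16.1 and 20.9. The pattern was noticed in the data, and the difference between the genotypes was not tested.

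Of the 45 genes 4 had the 5′ end of another coding gene within 1 kb on the other strand (8.89%, against 6.79% of all coding genes and 11.9% of those with a promoter peak in all libraries). The distances were 466 bp from Mcm4 to Prkdc, 659 bp from Gins1 to Abhd12, 120 bp from Pole to Pxmp2 and 146 bp from Aurka to Cstf1. The peaks of these pairs cannot be assigned to one gene.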
